A study of Mus musculus with 27 samples.

Results

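Of the 26264 gene symbols in the table, 9 make up the group described here, among them the neurotrophins Bdnf and Ntf3, the receptors Ntrk2 (TrkB), Ntrk3 (TrkC) and Ngfr (the p75 receptor), the transcription factors Creb1 and Crem, and the coactivator Crtc1. They were chosen by name, with earlier results of these data known, and no cut on their values was used, with bdnf, ntf3, ntrk2, ntrk3, ngfr, creb1, crem and crtc1 among the symbols. All 9 were found, and 8 of them passed the filter of a mean of at least 1 FPKM (fragments per kilobase of gene, scaled to the total of each library) that 12976 genes passed, while Ngfr fell under it. RNA was measured in a cortical block of about 1 mm3 from each hemisphere of 16-week-old female 5xFAD/C57BL6 mice, 24 h after a microinjection into the cortex of 1 hemisphere. The mice received R55 at 10 mM (5 mice), R33 at 10 mM (5 mice) or the vehicle alone (4 mice), which was 20% sulfobutylether beta-cyclodextrin in saline with 3% DMSO. The study describes R55 and R33 as chaperones that stabilise retromer, the complex that sorts cargo on endosomes. All groups carried the 5xFAD transgenes, which are driven by the neuronal Thy1 promoter, so each difference is between 5xFAD mice, and wild-type libraries were not used here. The 27 libraries comprised 4 injected and 4 contralateral libraries for vehicle, 5 and 4 for R33, and 5 and 5 for R55, and mice are called by the letters of their labels.

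Neurotrophins are secreted growth factors that are made as longer precursors and cut to their mature form. The mature factors signal through Trk receptor tyrosine kinases into the Ras-MAPK, PI3K and phospholipase C pathways, whereas the p75 receptor binds all of them and prefers the precursors. In cortex, Bdnf is made mostly by excitatory neurons and rises with their activity, and its receptor TrkB occurs in a full-length form in neurons and a truncated form that is abundant in astrocytes. Calcium, cAMP and Trk signals phosphorylate Creb, which binds the cAMP response element in promoters together with Crtc coactivators, and Bdnf is itself a well known Creb target. Creb activity is set largely by phosphorylation and by the entry of Crtc1 into the nucleus, neither of which RNA levels measure.

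The libraries held 15932197 to 38077031 fragments on genes. Summed over 10 excitatory neuron markers, levels ran from 2465 to 4559 FPKM over the libraries. The sum does not tell from which brain region the neurons came. The injected libraries of vehicle mouse L and R33 mouse N stood apart: the summed level of 7 striatal markers was 211.1 and 309.5 FPKM there, against 43.5 to 105.6 FPKM in the other 25 libraries. The injected library of R33 mouse AD also stood apart in several of the 9 genes, as given with each gene. In bulk tissue, fewer cells of a type and less RNA per cell cannot be told apart.

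The DNA before the start sites is shown for Bdnf and Ntf3, the ligands whose levels varied together across mice. The full cAMP response element TGACGTCA, which reads the same on both strands, was searched in the 250 bases before each coding start site of GENCODE M39 on GRCm39, as was its 5-base core. The core lies within the full element and reads TGACG, or on the opposite strand CGTCA. The first 2 windows lie on chromosome 2 on the plus strand at chr2:109522531-109522780 and chr2:109523658-109523907, and the third lies on chromosome 6 on the minus strand at chr6:126143874-126144123, and none of them overlaps an annotated exon. Capitals mark the core, and each window ends at the base before its start site.
Bdnf, start site with the core: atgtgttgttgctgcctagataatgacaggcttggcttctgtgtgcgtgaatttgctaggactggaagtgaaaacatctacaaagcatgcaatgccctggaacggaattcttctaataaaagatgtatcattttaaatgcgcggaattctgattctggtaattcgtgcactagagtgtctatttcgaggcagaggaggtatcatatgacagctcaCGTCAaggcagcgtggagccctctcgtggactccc
Bdnf, canonical start site: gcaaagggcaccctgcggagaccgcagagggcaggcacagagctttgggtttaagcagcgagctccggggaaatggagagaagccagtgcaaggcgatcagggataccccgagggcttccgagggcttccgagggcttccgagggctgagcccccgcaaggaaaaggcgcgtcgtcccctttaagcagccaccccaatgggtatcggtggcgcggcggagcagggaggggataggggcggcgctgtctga
Ntf3, upstream start site: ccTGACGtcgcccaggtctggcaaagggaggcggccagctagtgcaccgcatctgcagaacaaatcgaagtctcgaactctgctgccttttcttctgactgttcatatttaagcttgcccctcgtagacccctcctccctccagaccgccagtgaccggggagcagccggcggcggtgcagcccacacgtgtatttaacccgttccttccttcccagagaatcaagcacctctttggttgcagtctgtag
In the first Bdnf window the core began 35 bases before the start site (position -35), and it was the only one of the gene's 16 coding start sites that held one. In Ntf3 it began at position -248, for 1 of 2 start sites. Of all 67158 coding start sites 18.8% held the core, against 6.25% of those of Bdnf, so its presence there is nothing unusual. At the canonical start sites, 0 of the 9 genes held the full element and 2 of 9 (22.2%) the core, against 1.71% and 18.1% of the 21407 protein-coding genes. Crem differed from the other members when all its start sites were counted: 6 of its 20 coding start sites (30%) held the full element, against 1.57% of 67158 start sites of all coding genes, and 0 start sites of the other 8 members. Among 39 genes listed as Creb targets and activity-regulated genes, 7 (17.9%) held the full element at the canonical start site. A match is a description of letters and not a binding site.

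The levels of the 9 genes, in FPKM and thus per length, spanned from under 1 to over 50. Ntrk2 was highest, with a median of 52.6 FPKM over the 27 libraries (21.8 to 72.1), followed by Crtc1 at 48.2 FPKM (36.2 to 63.2). Both lay far above the rest, and Ntrk2 exceeded Crtc1 in 19 of 27 libraries, so their ranges overlapped. Ntrk3 came next at 11.99 FPKM (9.36 to 15.5) and then Creb1 at 6.48 FPKM (5.05 to 7.83). These were the clear steps of the order: Crtc1 exceeded Ntrk3, and Ntrk3 exceeded Creb1, in 27 of 27 libraries without overlap of the ranges. Bdnf stood at 4.52 FPKM (2.95 to 7.97) and Crem at 2.76 FPKM (1.95 to 3.44). Ntf3 at 0.78 FPKM (0.14 to 3.76) and Ngfr at 0.53 FPKM (0.30 to 0.83) were lowest. Each of these lower neighbours overlapped the next in range, with Creb1 above Bdnf, and Bdnf above Crem, in 25 of 27 libraries and Ntf3 above Ngfr in 20 of 27. FPKM per gene adds up all isoforms, so full-length and truncated TrkB, the Bdnf transcripts with different first exons, and the repressor form of Crem known as ICER cannot be told apart here.

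**Figure D1:**
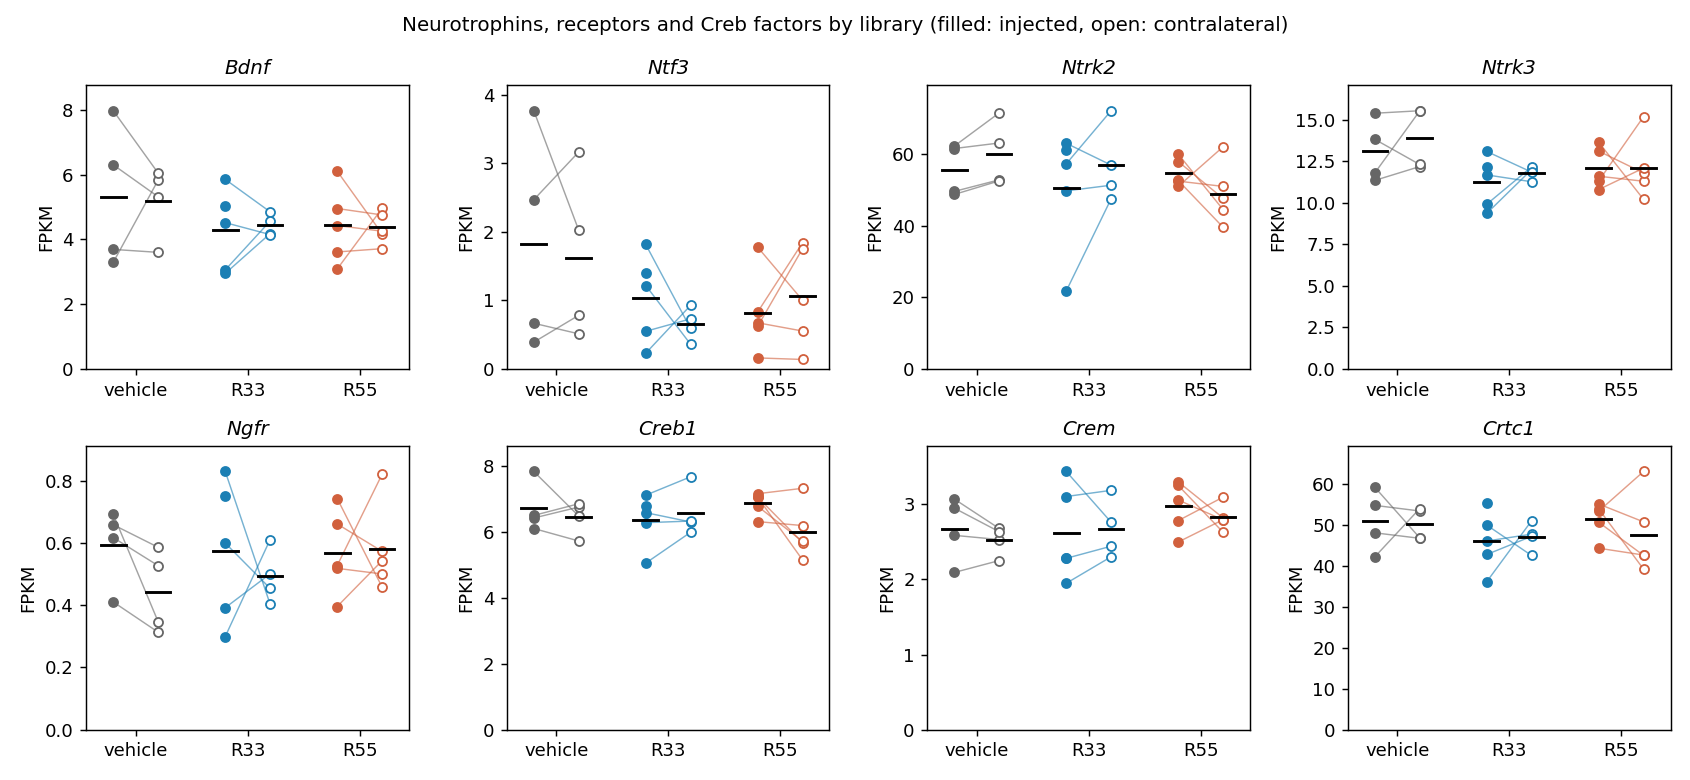
Level of 8 of the genes in FPKM (y axis, from 0) in each of the 27 libraries, by treatment (x axis). Filled points are injected and open points contralateral hemispheres, thin lines join the hemispheres of a mouse, and black bars are group means. The treatment groups overlap in every panel, and the R33 point at 21.8 FPKM of Ntrk2 is the injected library of mouse AD.

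No member was called between treatments or hemispheres. With limma on log2(FPKM + 1) and Benjamini-Hochberg adjustment over the 12976 genes, a gene was called at an adjusted p under 0.05. The hemispheres of a mouse were counted as separate libraries, though treatment was given per mouse and values correlated within mice (consensus 0.347). Intervals and unadjusted p-values of the drug comparisons over both hemispheres thus tend to be too small. For R55 against vehicle 0 of 8 members were called, beside 0.00771% of all tested genes. For R33 against vehicle, for the 2 drugs against each other and for the hemispheres 0 of 8 were called as well, beside 0%, 0% and 0% of all genes. At an unadjusted p under 0.05, 1 member, Ntrk3, was lower with R33 than with vehicle, as were 2.68% of all genes, while 3.19% were higher. For R55 against vehicle 0 members passed that limit, where 4.71% of genes were higher and 3.74% lower. For R55 against R33, 0 members passed, where 0.732% of genes were higher and 0.416% lower, and for the hemispheres 0 members passed, where 1.46% were higher and 2.01% lower. The mouse means of no member separated without overlap between R55 and vehicle (2.41% of all genes did), R33 and vehicle (0.771%) or R55 and R33 (0.1%). In simulated data of the same size, 200 of the 12976 genes were changed. Changes of 0.5 on the log2 scale were called for 127 of 200 genes and changes of 1 for 200 of 200. The adjustment is stricter where few genes change, so these shares do not give the power for a single member. They hold least for Ntf3, with an SE of 0.244 for R55 against vehicle.

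Bdnf, the ligand of TrkB, varied more within treatments than between them. On the log2 scale its SD was 0.2436 between the hemispheres of a mouse and 0.2405 between the mouse means of a treatment. In the injected hemisphere the vehicle mice J, M, L and AH had 6.30, 7.97, 3.29 and 3.69 FPKM, the R33 mice K, AE, O, N and AD had 5.85, 5.04, 4.52, 3.06 and 2.95 FPKM, and the R55 mice P, AA, Q, R and AB had 6.10, 3.08, 4.95, 4.42 and 3.61 FPKM. On the contralateral side the vehicle mice had 5.32, 6.05, 5.82 and 3.60 FPKM, the R33 mice K, O, N and AD 4.85, 4.15, 4.56 and 4.17 FPKM, and the R55 mice 4.17, 4.95, 4.75, 4.25 and 3.71 FPKM. Vehicle mice M and J were highest and vehicle mouse AH was among the lowest, so the groups overlapped, though 3 injected libraries of drug-treated mice (AD, N and AA) lay below every vehicle library. The low injected values of L and N came from the libraries with striatal markers, and mouse L had 5.82 FPKM on its other side. Mouse means were 5.25 ± 1.47 FPKM with vehicle (SD, n = 4), 4.42 ± 0.771 with R33 (n = 5) and 4.401 ± 0.601 with R55 (n = 5). The log2 difference was -0.18 for R55 against vehicle (SE 0.133, 95% interval -0.46 to 0.09, limma adjusted p = 0.657) and -0.20 for R33 against vehicle (SE 0.137, interval -0.48 to 0.08, adjusted p = 0.85). These comparisons share the vehicle mice. Single vehicle mice moved both values: the log2 differences of Bdnf were -0.05 and -0.07 without mouse M, and -0.31 and -0.33 without mouse AH.

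Ntf3, the preferred ligand of TrkC, was the most variable of the 9 genes. Its highest library held 27.4 times the FPKM of its lowest, and its coefficient of variation over the 14 mice was 70.5%, above that of 99.4% of all tested genes. In the injected hemisphere the vehicle mice J, M, L and AH had 2.47, 3.76, 0.39 and 0.67 FPKM, the R33 mice K, AE, O, N and AD had 1.81, 1.40, 1.22, 0.23 and 0.55 FPKM, and the R55 mice P, AA, Q, R and AB had 1.77, 0.83, 0.62, 0.16 and 0.67 FPKM. The contralateral values were 3.16, 2.03, 0.78 and 0.51 FPKM with vehicle, 0.59, 0.36, 0.93 and 0.73 FPKM in R33 mice K, O, N and AD, and 1.002, 1.84, 1.75, 0.14 and 0.55 FPKM with R55. Vehicle mice J and M were above every other mouse, while vehicle mice L and AH lay among the lowest, and R55 mouse R was lowest on both sides. These values rest on 6 to 130 fragments per library, with 6 and 7 fragments in mouse R, so counting error is large at the low end. Ntf3 passed the filter narrowly, at a mean of 1.145 FPKM, and through the vehicle group. Its mouse means averaged 1.72 FPKM with vehicle but 0.921 with R33 and 0.934 with R55, both under the limit of 1 FPKM. Its place among the tested genes thus depends on the group where it was high. The log2 difference was -0.41 for R55 against vehicle (SE 0.244, interval -0.91 to 0.09, adjusted p = 0.61) and -0.44 for R33 against vehicle (SE 0.25, interval -0.95 to 0.07, adjusted p = 0.85). Single mice moved the size: the difference of Ntf3 for R55 was -0.20 without vehicle mouse J or M, -0.24 without R55 mouse R, and -0.63 and -0.62 without vehicle mice L and AH. For R33 it was -0.23 without J or M and -0.66 and -0.65 without L and AH. Ntf3 had an unadjusted p of 0.032 for R55 against vehicle when the injected libraries of L and N, with their striatal markers, were left out (log2 difference -0.54, adjusted p = 0.581).

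Ntrk3, which encodes the neurotrophin-3 receptor TrkC, was the member that came nearest to a difference. In the injected hemisphere it stood at 13.8, 15.4, 11.8 and 11.3 FPKM in vehicle mice J, M, L and AH, at 11.7, 12.1, 13.1, 9.91 and 9.36 FPKM in R33 mice K, AE, O, N and AD, and at 13.1, 11.3, 13.6, 10.8 and 11.6 FPKM in R55 mice P, AA, Q, R and AB. On the contralateral side it stood at 12.3, 15.5, 15.5 and 12.2 FPKM with vehicle, at 11.3, 11.8, 12.2 and 11.99 FPKM in R33 mice K, O, N and AD, and at 11.8, 15.2, 10.2, 12.1 and 11.3 FPKM with R55. On the contralateral side the highest R33 library (12.15 FPKM) lay just under the lowest vehicle library (12.17 FPKM), while the injected libraries overlapped. The share of all genes that separate so within 1 hemisphere was not counted. By mouse means, 3 of 5 R33 mice and 2 of 5 R55 mice lay below every vehicle mouse. The log2 difference was -0.21 for R33 against vehicle (SE 0.077, interval -0.37 to -0.05, unadjusted p = 0.0124, limma adjusted p = 0.834) and -0.14 for R55 against vehicle (SE 0.075, interval -0.30 to 0.01, unadjusted p = 0.0679, adjusted p = 0.594). It thus failed the correction in both. The R55 value of Ntrk3 was -0.08 (unadjusted p = 0.327) without vehicle mouse M and -0.20 (unadjusted p = 0.0186) without vehicle mouse AH. With R33 the unadjusted p of Ntrk3 stayed under 0.05 in 24 of 25 alternative settings, the exception being the fit without vehicle mouse M (difference -0.14, unadjusted p = 0.0891), and the adjusted p ran from 0.308 upward.

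Ntrk2, which encodes TrkB, was low in 1 library. The injected hemisphere had 62.2, 48.7, 49.6 and 61.6 FPKM in vehicle mice J, M, L and AH, 49.7, 61.1, 63.0, 57.3 and 21.8 FPKM in R33 mice K, AE, O, N and AD, and 52.5, 52.6, 57.9, 51.0 and 60.0 FPKM in R55 mice P, AA, Q, R and AB. The contralateral hemisphere had 71.5, 52.5, 52.8 and 63.1 FPKM with vehicle, 51.3, 56.9, 72.1 and 47.5 FPKM in R33 mice K, O, N and AD, and 51.0, 39.6, 47.6, 62.0 and 44.5 FPKM with R55. Apart from the library of mouse AD, the injected libraries of the groups covered much the same range. On the contralateral side R55 lay lower, at 39.6 to 62.0 FPKM (mean 48.95) against 52.5 to 71.5 FPKM (mean 59.98) with vehicle. These ranges overlapped. That library also had the lowest values of Crtc1 (36.2 FPKM), Creb1 (5.05), Ntrk3 (9.36), Ngfr (0.30) and Bdnf (2.95), and the highest of Crem (3.44). Its sum of excitatory neuron markers was 4399 FPKM, the highest of the injected R33 libraries. It was also the highest of all 27 libraries in the sums of red blood cell transcripts (8.17 FPKM, with 5.71 the next), interneuron markers (744.9) and mural and fibroblast markers (85.7). The part of these cells in its values was not tested. The log2 difference of Ntrk2 was -0.15 for R55 against vehicle (interval -0.45 to 0.15, adjusted p = 0.718) and -0.16 for R33 against vehicle (interval -0.47 to 0.15, adjusted p = 0.863). Neither sign held throughout: the R55 value became 0.07 with the length dependence removed, and the R33 value 0.03 without mouse AD.

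Ngfr, which encodes the p75 receptor, was at 17 to 85 fragments per library, and its mean of 0.55 FPKM lay under the filter. Its mouse means were 0.519 ± 0.113 FPKM with vehicle (SD, n = 4), 0.559 ± 0.128 with R33 (n = 5) and 0.574 ± 0.0833 with R55 (n = 5). In a fit without the filter its log2 differences from vehicle were 0.05 for R55 (interval -0.08 to 0.19, adjusted p = 0.827) and 0.01 for R33 (interval -0.12 to 0.15, adjusted p = 0.996). Ngfr was higher in the injected hemisphere in 4 of 4 vehicle mice, 2 of 4 R33 mice and 3 of 5 R55 mice.

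Crem, a relative of Creb1 whose short form ICER represses Creb targets, lay close together among the R55 mice. Its injected values were 3.07, 2.95, 2.59 and 2.09 FPKM in vehicle mice J, M, L and AH, 3.10, 2.29, 1.95, 2.28 and 3.44 FPKM in R33 mice K, AE, O, N and AD, and 3.06, 3.30, 2.78, 3.25 and 2.50 FPKM in R55 mice P, AA, Q, R and AB. Its contralateral values were 2.68, 2.64, 2.53 and 2.25 FPKM with vehicle, 3.19, 2.30, 2.44 and 2.76 FPKM in R33 mice K, O, N and AD, and 2.79, 2.82, 3.10, 2.63 and 2.80 FPKM with R55. By mouse means 4 of 5 R55 mice lay above every vehicle mouse, the fifth lay among them, and R33 mice lay on both sides. The log2 difference was 0.12 for R55 against vehicle (SE 0.072, interval -0.03 to 0.27, adjusted p = 0.621), 0.01 for R33 against vehicle (interval -0.15 to 0.16, adjusted p = 0.988) and 0.11 for R55 against R33 (interval -0.03 to 0.26, adjusted p = 1.0). None of the 3 passed the threshold, and the R33 value of Crem changed sign in 6 of 25 alternative settings. The R55 value of Crem against vehicle was 0.06 without vehicle mouse AH, and that against R33 was 0.05 without R33 mouse O and 0.17 without R33 mouse K.

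Creb1 and Crtc1 varied little. Creb1 mouse means were 6.58 ± 0.512 FPKM with vehicle (SD, n = 4), 6.49 ± 0.686 with R33 (n = 5) and 6.44 ± 0.457 with R55 (n = 5), a coefficient of variation over all mice of 8.04%. Its log2 difference from vehicle was -0.03 for either drug (R55 interval -0.17 to 0.11, adjusted p = 0.883, and R33 interval -0.17 to 0.11, adjusted p = 0.932), with the sign turning to 0.08 and 0.06 when the length dependence was removed. Crtc1, the coactivator that calcineurin releases to the nucleus, gave -0.04 for R55 (interval -0.21 to 0.14, adjusted p = 0.89) and -0.12 for R33 (interval -0.31 to 0.06, adjusted p = 0.85). Its R55 value reached 0.01 without mouse AA. Crtc1 mouse means were 50.7 ± 3.41 FPKM with vehicle, 47.5 ± 4.67 with R33 and 49.6 ± 5.94 with R55 (SD), with a coefficient of variation of 9.57%. By mouse means, 4 of 5 R33 mice and 3 of 5 R55 mice lay below every vehicle mouse in Crtc1. In each drug group 1 of 5 lay above every vehicle mouse. The share of all genes with such counts was not counted.

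**Figure D2:**
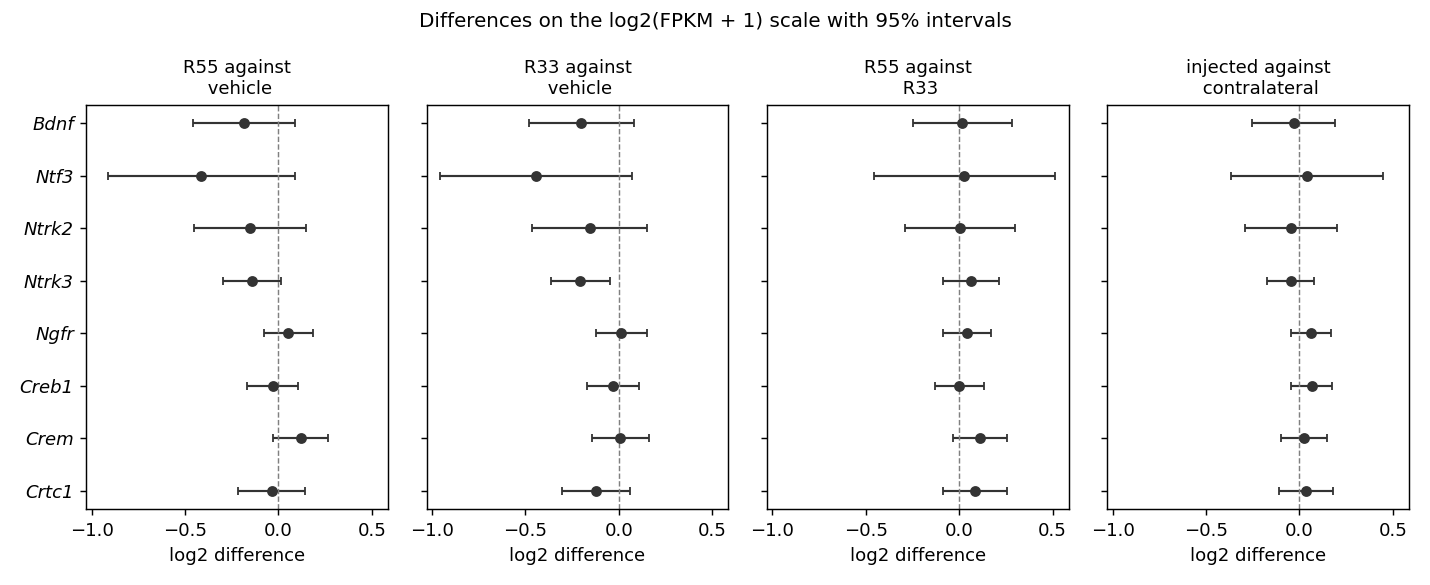
Differences of 8 of the genes on the log2(FPKM + 1) scale (x axis) with 95% intervals from limma, in 4 panels: either drug compared with vehicle, the drugs compared with each other, and the hemispheres compared. The interval of Ntrk3 for R33 against vehicle, -0.37 to -0.05, is the only one that leaves out 0, and Ntf3 has the widest intervals.

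R55 and R33 were given at the same concentration and measured at the same time, and 1 pair of compounds was compared. For Bdnf the log2 difference of R55 against R33 was 0.02 (interval -0.25 to 0.28), and for Ntf3 it was 0.03 (-0.46 to 0.51). For the receptors it was 0.00 for Ntrk2 (-0.29 to 0.30), 0.06 for Ntrk3 (-0.09 to 0.21) and 0.04 for Ngfr (-0.09 to 0.17). For Crtc1 it was 0.09 (-0.09 to 0.26). No member was called between the compounds, and the intervals do not show that the compounds act alike, least so for Ntf3.

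No member was called between the injected and the contralateral hemisphere. Within the 13 mice with both libraries, Bdnf was higher on the injected side in 8, Ntrk2 in 5, Ntf3 in 7, Crem in 7, Creb1 in 7 and Crtc1 in 8. Those for Ntrk2 were 0 of 4 vehicle, 1 of 4 R33 and 4 of 5 R55 mice. With the mouse as replicate block, the log2 difference of Bdnf was -0.05 (SE 0.09, adjusted p = 0.971), that of Ntrk2 -0.07 (SE 0.097, adjusted p = 0.967) and that of Creb1 0.06 (SE 0.048, adjusted p = 0.918). The largest gap within a mouse was -1.09 for Ntrk2 in R33 mouse AD, and the largest for Bdnf was -0.67 in vehicle mouse L. Fitted in each hemisphere alone, 0 of 8 members were called or reached an unadjusted p under 0.05 for either drug against vehicle. Of all genes, 1.09% (R55) and 1.84% (R33) reached that limit in the injected hemisphere, and 11.5% and 2.96% in the contralateral one. Ntrk2 on the contralateral side came nearest for R55 (log2 difference -0.29, unadjusted p = 0.0655, adjusted p = 0.444), and that value became 0.03 with the length dependence removed. The drug effect differed between hemispheres in 0 of 8 members at an adjusted or unadjusted p under 0.05, against 1.84% of genes for R55 and 0.378% for R33 at the unadjusted limit.

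Across the 14 mice, Bdnf and Ntf3 rose and fell together. The mouse means of log2 values had Pearson's r = 0.797 and Spearman's rho = 0.692, and r was 0.547 without mice J and M, the most extreme in Bdnf. It was 0.880 over the 9 mice with 1-letter names, 0.765 after each treatment's mean was taken out, and 0.677 for the differences between hemispheres in 13 mice. Bdnf and Ntrk3 had r = 0.692, which fell to 0.334 without J and M but was 0.792 for the hemisphere differences. These are the highest of 36 pairs in the group, chosen after their values were seen, and both genes of a pair come from the same libraries. Ntrk2 and Crem ran in opposite directions, with r = -0.597, and -0.811 without mice J and AD. Bdnf also ran against the mean log2 level of 8 interneuron markers (r = -0.827, rho = -0.82), the strongest of 126 pairs of a member and a gene list. Summed interneuron markers ran from 441.5 to 587.6 FPKM in the injected libraries of vehicle mice, 482.1 to 744.9 with R33 and 487.9 to 649.9 with R55, at medians of 528.6, 575.0 and 529.9 FPKM. On the contralateral side they ran from 495.2 to 561.5 FPKM with vehicle, 477.4 to 697.9 with R33 and 394.4 to 699.4 with R55, at medians of 503.8, 529.2 and 653.6 FPKM. Of the 8 interneuron markers, 2 were higher with R55 than with vehicle and 1 with R33 at an unadjusted p under 0.05, and 0 were called. The part of tissue composition in the Bdnf values was not tested. The mice with 2-letter names were vehicle mouse AH, R33 mice AD and AE, and R55 mice AA and AB. Of these, AD, AH and AB had the lowest Bdnf mouse means of all mice (3.56, 3.64 and 3.66 FPKM), and AA and AE had 4.02 and 5.04. Their interneuron sums ran from 529.9 to 744.9 FPKM, against 394.4 to 699.4 FPKM in mice with 1-letter names. The part of the name series in this correlation was not tested.

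**Figure D3:**
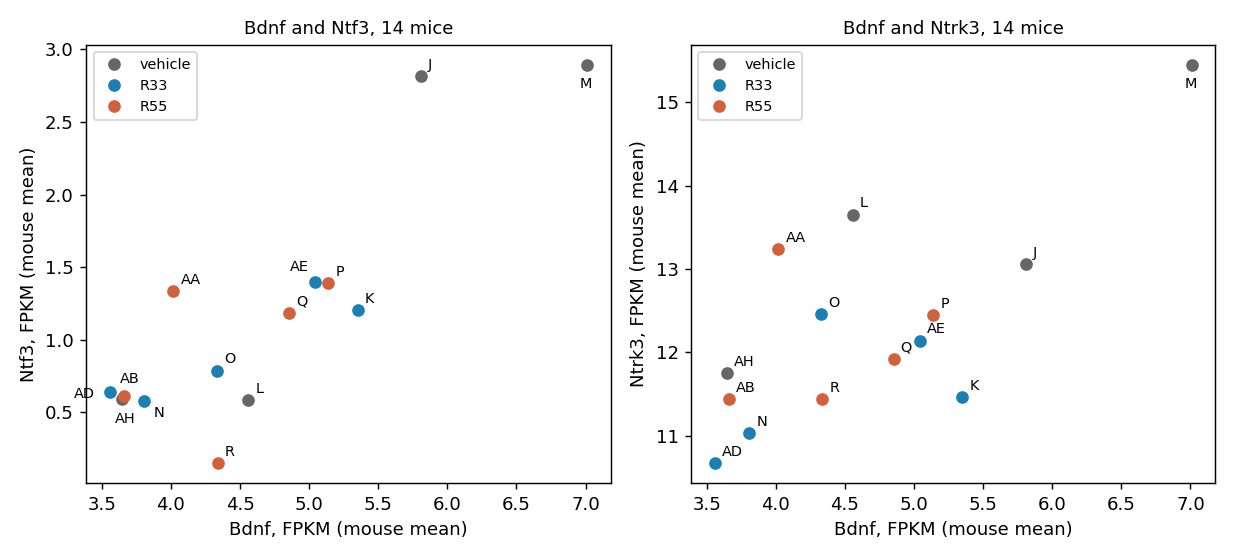
Mouse means in FPKM of Bdnf (x axis) against Ntf3 (left) and Ntrk3 (right), 1 point for each of 14 mice, coloured by treatment and marked with the mouse's letters. Vehicle mice J and M lie at the upper right, at 5.81 and 7.01 FPKM of Bdnf and 2.81 and 2.90 FPKM of Ntf3.

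The genes whose levels followed each member most closely over the 14 mouse means were named by their Pearson's r among all tested genes, as a description. For Bdnf they were Slc26a10 (r = 0.953), Ppfia2, a liprin of the presynaptic active zone (0.916), and Ptgs2, the inducible cyclooxygenase (0.913). Ntf3 was followed by Slc44a5 (0.941), Slc26a4, an anion exchanger (0.941), and Lrrtm1, a synaptic adhesion protein (0.930). Ntrk2 was followed by Ptprz1, a receptor phosphatase of glia (0.951), Plxnb1, a semaphorin receptor (0.943), and Lrp4 (0.931). For Ntrk3 they were the cadherin Cdh11 (0.913), Zfp532 (0.890) and Shisa7, an auxiliary receptor subunit (0.888). Crtc1 was followed by Camk2a, the calcium-dependent kinase of excitatory synapses (0.878), Iqsec2 (0.854) and Ski (0.818). Creb1 was followed by Ctdspl2 (0.929), Ccdc186 (0.906) and Fbxw11 (0.898), and Crem by Zcchc4 (0.857), Tmem138 (0.848) and Rbbp7 (0.827). Each set of 3 is the top of 12976 genes over only 14 mice.

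The other genes of the pathway were taken as 5 lists, put together with earlier results of these data known. None of their genes was called by limma in any of the 3 drug comparisons. Of 13 tested ligand, receptor and precursor-processing genes, 0 were higher and 1 lower with R55 at an unadjusted p under 0.05. This was Sorl1, a sorting receptor that binds retromer, at 40.4 ± 6.89 FPKM with vehicle and 29.8 ± 1.71 with R55 (SD, n = 4 and 5 mice), a log2 difference of -0.41 (SE 0.143, unadjusted p = 0.00781, limma adjusted p = 0.545), beside -0.39 with R33 (adjusted p = 0.834). Of 51 genes of Trk signalling, 2 were higher and 5 lower with R55 at the unadjusted limit (4.71% and 3.74% of all genes). With the correlation within mice modelled, 0 were higher and 0 lower (2.01% and 1.99% of all genes). In the fit without that correlation, the adaptor Shc1 (log2 difference 0.20) and the feedback inhibitor Spry2 (0.11) had the smallest p of the higher ones, and the kinase Braf (-0.20) and the Trk scaffold Kidins220 (-0.20) of the lower ones, with limma adjusted p from 0.557 to 0.586. Of 19 partners and effectors of p75, 0 passed that limit with R55, and of 39 Creb kinases, phosphatases and coactivators 1 did, Creb3 (log2 difference 0.13, adjusted p = 0.584), or 0 with the correlation within mice modelled.

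Creb target and activity-regulated genes had higher median levels with R55 than with vehicle or R33, without a call for any single gene. At the unadjusted limit, 8 of 39 were higher and 1 lower for R55 against vehicle, beside 4.71% and 3.74% of all genes. For R33 against vehicle 0 were higher and 1 lower, beside 3.19% and 2.68% of all genes. For R55 against R33 12 were higher and 0 lower, beside 0.732% and 0.416% of all genes. The median log2 difference of the list was 0.15, -0.02 and 0.17, beside 0.03, 0.02 and 0.00 over all tested genes. Dusp1, a MAP kinase phosphatase, stood at 13.6 ± 3.59 FPKM with vehicle and 20.3 ± 4.404 with R55 (SD over mouse means, n = 4 and 5), a log2 difference of 0.56 (SE 0.212, limma adjusted p = 0.552), and 0.65 against R33 (SE 0.205, adjusted p = 1.0). Ccn1, a secreted matrix protein, stood at 3.13 ± 0.956 and 5.02 ± 2.16 FPKM, a log2 difference of 0.52 (SE 0.194, adjusted p = 0.552), beside 0.01 with R33. The nuclear receptor Nr4a3 lay the other way, at 6.20 ± 2.26 FPKM with vehicle and 4.24 ± 1.47 with R55, a log2 difference of -0.46 (SE 0.211, adjusted p = 0.582), beside -0.38 with R33. Bdnf, a target of Creb as well, gave -0.18 with R55.

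Markers of other cells shifted beside this list. For R55 against R33, 10 of 10 mural and fibroblast markers had a positive log2 difference (median 0.16), as had 10 of 10 microglia markers (median 0.09), while 0 of 7 striatal markers had one (median -0.38). For R55 against vehicle the positive ones were 6 of 10 (median 0.07), 9 of 10 (0.07) and 1 of 7 (-0.26). Of the other brain cell lists for R55 against R33, 7 of 8 endothelial (median 0.05) and 7 of 10 excitatory neuron markers (0.06) were positive. So were 5 of 9 astrocyte (0.00), 3 of 8 interneuron (-0.01) and 2 of 10 oligodendrocyte lineage markers (-0.07). The striatal sum was highest, at 309.5 FPKM, in the injected library of R33 mouse N. None of these markers was called, and their part in the values of the Creb target list was not tested.

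The list was chosen with results of these data known, so its counts are not independent evidence of a direction. With the correlation within mice modelled, 6 of the 39 genes were higher for R55 against vehicle (2.01% of all genes) and 10 for R55 against R33. Shares of all genes under the fits that follow are not given here. With 1 value per mouse, 0 of the 39 genes passed the unadjusted limit for R55 against vehicle and 5 for R55 against R33, at medians of 0.15 and 0.18. Without mouse Q, the counts of higher genes were 1 and 4, and without mouse J 3 for R55 against vehicle. Without R33 mouse N, whose injected library held striatal markers, 3 were higher for R55 against R33. Without R33 mouse AD, 18 were higher and 1 lower, and Dusp1 and Ier2 were called by limma, 2 of the 2 genes called among all. Leaving out each mouse in turn, the median ran from 0.12 to 0.19 for R55 against vehicle and from 0.13 to 0.23 for R55 against R33, and it changed sign for R33 against vehicle (-0.12 to 0.04). Over the 14 mice, the mean log2 level of the list had r = 0.632 with Crem and -0.690 with Ntrk2.

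**Figure D4:**
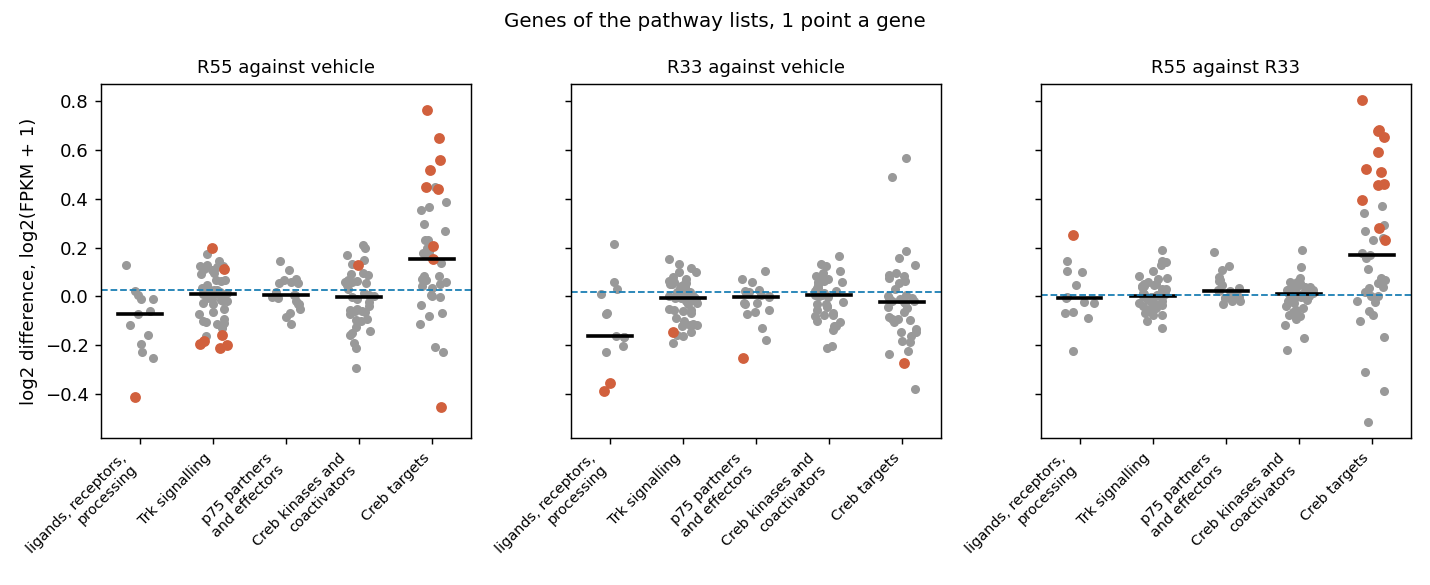
Log2 differences (y axis) of the genes of the 5 pathway lists in the 3 drug comparisons, 1 point a gene. Orange points have an unadjusted p under 0.05, black bars are list medians, and the dashed line is the median over all tested genes. The Creb targets have medians of 0.15, -0.02 and 0.17.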

How the data were processed

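The authors prepared stranded mRNA libraries from cortex, mapped the read pairs with HISAT2 on GRCm39, tested with DESeq2 and deposited FPKM per gene symbol. The counting tool, its annotation and its strand setting are not given in the sources used here, and all members except Creb1 overlap another annotated gene, on the opposite strand or the same one. The table lists 32 libraries, of which 27 were analysed and 5, absent from the list of samples followed, were not used here. Of the FPKM values above 0, 100% were whole fragments within 0.01 once each gene's length was recovered, which gave 15932197 to 38077031 fragments per library.

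A mean of 1 FPKM or more was required of each gene, which was then tested with limma 3.58.1 in R 4.3.3 on log2(FPKM + 1), so differences of genes near or below 1 FPKM are understated. The model added treatment and hemisphere, let the prior variance follow intensity, and adjusted p-values by Benjamini-Hochberg over 12976 genes, with calls at an adjusted p under 0.05. The hemispheres of a mouse entered as separate libraries, as in the study's model with treatment and hemisphere as factors. The consensus correlation within mice was 0.347, so drug intervals and unadjusted p-values from this fit tend to be too small. Hemisphere fits and an interaction were made in the same way. Hemispheres are paired by the mouse in their labels, and a fit with mouse as replicate block used the 13 mice with both. The fit was tested on simulated data, where 8 and 18 genes without a change were called at changes of 0.5 and 1. Members and gene lists were chosen with earlier results of these data known. Named genes were all members, up to 2 genes per list and direction with the smallest unadjusted p for R55 against vehicle, and the 3 genes with the highest r for each tested member; other names were chosen after their values were seen, and 1 member is counted with the others but not reported here. Alternatives changed the scaling, filter, pseudocount (0.1), trend, length dependence, model and mice.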

Additional observations from a re-analysis of the deposited data

How the results depend on the processing

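Counts of members called stayed at 0 in all 221 alternative fits of the 10 comparisons, each mouse left out in turn included (lowest 0, highest 0), and with the mouse as replicate block 0 members were called between hemispheres. Since the counts were 0 at the outset, this says little about stability. The block fit of the hemispheres called 0 genes of any kind, with 403 higher and 392 lower at an unadjusted p under 0.05 against 189 and 261 without it. Of 1989 alternative values of single members, 146 changed sign, mostly where the difference was near 0, and 5 moved by more than the residual SD. The 5 were Ngfr with a pseudocount of 0.1 (0.33 for R55 on the contralateral side, -0.39 and -0.24 for the difference of the R55 and R33 effects between hemispheres), and, with the length dependence removed, Ntrk2 (0.03) and Creb1 (0.08) for R55 on the contralateral side. Leaving out the libraries with striatal markers or the injected library of mouse AD, chosen after seeing the data, called 0 members. With the pseudocount of 0.1 Ntf3 gave -0.74 for R55 and -0.72 for R33 against vehicle. Low fragment counts limit Ntf3 and Ngfr.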
